A study of Mus musculus with 8 samples.

Results

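Monocyte-like infiltrating tumour-associated macrophages (TAMs) were examined in 6 Drop-seq libraries of orthotopic GL261 glioma, a mouse glioma line grown in the brain of mice of its own strain. The cells were chosen by their measured UMIs (unique molecular identifiers, each standing for 1 captured mRNA molecule). Among the 1000 barcodes with the most UMIs in each library, cells with at least 1000 detected genes were kept, and UMIs were scaled to 10,000 per cell. A member had at least 30 UMIs per 10,000 of the myeloid genes Tyrobp, Fcer1g and Lyz2 together. It had at least 10 of the infiltrating genes Tgfbi, Thbs1, Ccr2, Ly6c2, Plac8, Ms4a7, Arg1 and Mrc1, and more of these than of the microglial genes P2ry12, Siglech, Cx3cr1 and Gpr34. It had under 10 of the tumour cell genes Col9a1, Lect1 and Rhox5, and more of the monocyte genes Ly6c2, Plac8 and Chil3 than of the complement genes C1qa, C1qb and C1qc. The rule found 100 members among 4807 kept cells, that is 2.08% (exact 95% binomial interval 1.70 to 2.52%), and 24.0% of the 416 infiltrating myeloid cells. The other 316 infiltrating cells had as many or more C1q UMIs and are called C1q-positive cells below. All 8 libraries of the series together held 5733 kept cells.

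Each library held the cells of 1 C57BL/6 mouse (C57BL/6N in the study's methods) of genotype Irg1/Acod1 +/+ (WT) or Irg1/Acod1 -/- (KO), implanted with 500 GL261 cells in the brain and taken at an early (tumour volume 5 to 10 mm3), intermediate (20 to 25 mm3) or late (30 to 35 mm3) stage, so each genotype and stage was represented by 1 library. The KO allele carries an inserted cassette in every cell of the mouse, not in myeloid cells alone. According to the study the early WT mouse and the intermediate KO mouse were female and the other tumour-bearing mice male, so that genotype and sex cannot be told apart at those stages. Tumour cores were macrodissected, and a naive WT and a naive KO library, whose titles name 2 mice each, were not implanted. Members numbered 19 in the WT early, 27 in the KO early, 6 in the WT intermediate, 16 in the KO intermediate, 7 in the WT late and 25 in the KO late library. Values per library are given in this order throughout. The members' UMIs summed to 57840, 114546, 38764, 55106, 16754 and 95425, so the WT intermediate and WT late libraries rest on the fewest cells. The rule found 1 member among 463 cells of the naive KO library and 0 of 463 in the naive WT library, which allows a share of up to 0.648%.

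Monocytes are bone marrow-derived blood leukocytes. The classical kind carries high Ly6C, enters inflamed tissue by the chemokine receptor Ccr2 and there gives rise to macrophages and some dendritic cells. In gliomas such cells join the resident microglia, and their maturation is known to bring loss of Ly6C and gain of C1q, Apoe and lysosomal genes. Acod1, also named Irg1, is the mitochondrial enzyme that makes itaconate in activated myeloid cells.

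The label was set beside the markers given for these cells, of which all but Ms4a4c served in the rule. Ly6c2, which encodes the Ly6C2 surface antigen, had a UMI in 87% of members against 46.8% of C1q-positive cells, 1.67% of tumour-associated microglia and 4.25% of tumour cells. Plac8, a small cysteine-rich protein of monocytes and other leukocytes, was found in 86%, 37.3%, 10.8% and 5.6% of these cells. Chil3, a secreted chitinase-like protein, was found in 20% of members, 2.53% of C1q-positive cells and in none of the 120 microglia. Ccr2 was found in 77% of members and 46.5% of C1q-positive cells, and Ms4a4c, a membrane protein of the MS4A family, in 65% and 57.6%. Lyz2, the macrophage lysozyme, was found in 91% of members and 99.4% of C1q-positive cells, beside 10.5% of tumour cells. The median cell held 2951.5 UMIs among members, 3610.5 among C1q-positive cells, 3118 among microglia and 4883 among tumour cells, so the higher shares in members were not accompanied by greater depth. The values of the rule genes describe how the cells were chosen, carry no test and do not check the label.

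In 22 of the 100 members, RNA of another leukocyte lineage reached 10 UMIs per 10,000. Of these, 14 carried it from the T cell list (Cd3d, Cd3e, Cd3g, Trac, Trbc2 and Cd8a) or the NK cell list (Ncr1, Klrb1c, Klre1, Klra8 and Prf1), 8 from the dendritic cell lists, 2 from the neutrophil list and 1 from the B cell list, some from more than 1. The median Lyz2 level was 10.5 UMIs per 10,000 in the 22 cells and 135 in the other 78, and the median Ly6c2 level was 6.26 and 35.9. In all, 16 members had under 10 UMIs per 10,000 of Lyz2, of which 11 were among the 22. The 22 cells numbered 2, 5, 2, 7, 0 and 6 per library and held 10.6%, 16.7%, 61.0%, 40.4%, 0% and 25.6% of the members' UMIs. They weighed most in the WT intermediate library, where the largest member held 20080 UMIs. Plac8 and Ly6c2 are also known from lymphocytes, and 11 members passed the monocyte gate on Plac8 alone. Counts of called genes below are therefore given for all 100 members and for the 78 cells without other-lineage RNA. Values of single genes are for the cells named beside them, and for all members where none are named.

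**Figure D1:**
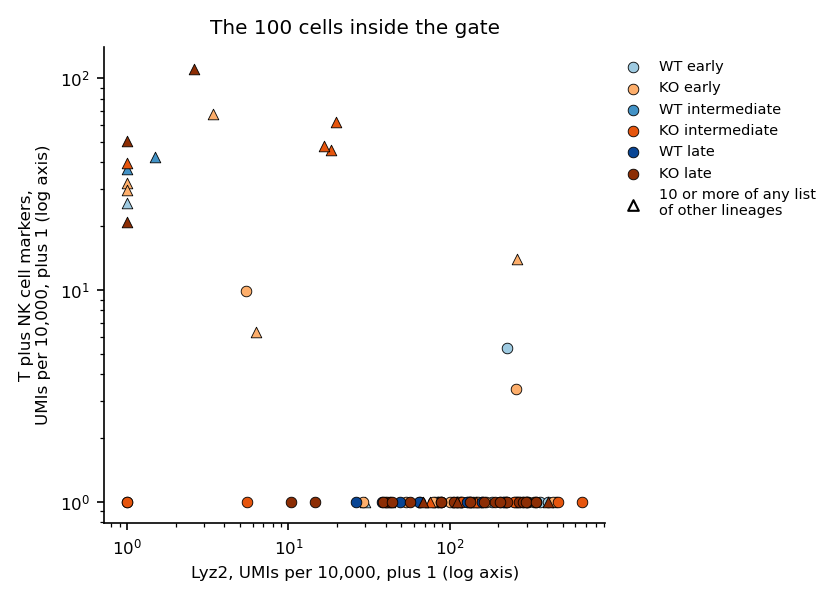
Each point is 1 of the 100 monocyte-like cells, coloured by library, with Lyz2 on the horizontal axis and the sum of the T and NK cell lists on the vertical axis, both in UMIs per 10,000 plus 1 on log scales, and triangles mark the 22 cells with RNA of another lineage. The triangles with high T or NK cell RNA lie mostly at low Lyz2, whereas nearly all of the 78 circles lie at the foot of the plot, with a median Lyz2 of 135.

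Transcripts of other cells were also present. In all 100 members the oligodendrocyte list summed to 36.6 UMIs per 10,000 in the KO late library and to at most 2.62 in the others, and 7 members reached 10. The microglia list ranged from 0.907 to 9.12 over libraries, with Siglech at 0, against 51.2 to 79.1 in microglia. The GL261 list ranged from 0.692 to 3.14, the endothelial list from 0.597 to 7.65 and the border-associated macrophage list from 0 to 15.2, the last value from the WT intermediate library. Of the last list, Pf4 had 64 UMIs in members, Cbr2 had 1, and Lyve1, Cd163 and Folr2 had 0. No member's barcode was kept in another library. Kept cells per library numbered between 463 and 1000, and the tables held between 2885345 and 9950713 UMIs.

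The members differed widely among themselves. Over the 78 cells the monocyte genes of the rule summed to between 3.96 and 213 UMIs per 10,000 per cell, with a median of 67.2, and the C1q genes to between 0 and 72.0, with a median of 2.02. Of all 100 members, 56 had no C1q UMI, 16 had UMIs of all 3 monocyte genes and 23 of only 1. The border to the C1q-positive cells was crossed gradually. The 5 members nearest to it had 3.15 to 5.45 more monocyte than C1q UMIs per 10,000, the 5 nearest cells outside had a difference of -3.26 to 0, and 195 of the 316 C1q-positive cells had at least 1 monocyte gene UMI. The MHC class II list ranged from 0 to 860 UMIs per 10,000 over the 78 cells with a median of 318, and the macrophage maturation list from 4.53 to 594 with a median of 112.

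The rule genes had the following levels in the summed members, as a description. Ly6c2, on chromosome 15 of GRCm38 from 75108158 to 75111970, measured 49.6, 40.2, 16.8, 34.7, 41.2 and 37.9 UMIs per 10,000 in all members. The 78 cells gave 55.1, 44.5, 41.7, 38.7, 41.2 and 42.4, a narrower range, since the low WT intermediate value rested on the 2 cells removed there. In C1q-positive cells Ly6c2 stood at 0.635 to 9.64. Plac8 measured between 19.1 and 34.0 in all members, and Ccr2 between 5.42 and 16.7. Chil3 was uneven, at 0.173, 7.51, 0.258, 0.544, 1.79 and 2.10, highest in the KO early library. Arg1, the arginase of alternatively activated macrophages, measured 2.94, 26.4, 1.55, 11.3, 25.1 and 20.7 in members and 8.89, 59.3, 9.85, 28.2, 4.52 and 46.1 in C1q-positive cells, with no constant order between these cells. C1qb measured between 0 and 8.82 in members and between 36.5 and 50.6 in C1q-positive cells.

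Whether monocyte-like cells were more frequent in KO tumours was asked of the shares per library. Members made up 2.61%, 3.67%, 0.6%, 1.90%, 0.978% and 3.19% of kept cells. The KO share was the higher at each stage, but the KO intermediate share lay below the WT early share, so the genotypes overlapped. The mean was 2.92 ± 0.918% in KO (SD, n = 3 libraries) and 1.39 ± 1.07% in WT, a difference of 1.53 percentage points, with a two-sided exact permutation p of 0.2. Without the 22 cells the difference was 1.01 points (exact permutation p = 0.3), and with cells of little Lyz2 also removed it was 0.781 points (exact permutation p = 0.5). This test did not match the libraries by stage, and with 3 against 3 the smallest p it can give is 0.1. Tumour cells also fell under kept cells, and made up most of them in 5 of 6 libraries.

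Among infiltrating myeloid cells the members' share was 17.1%, 35.5%, 35.3%, 18.4%, 36.8% and 23.6%. It was higher in KO than in WT at the early stage and lower at the other 2. The WT intermediate and WT late shares rest on 17 and 19 infiltrating cells, with exact 95% intervals of 14.2 to 61.7% and 16.3 to 61.6%, which reach over all other libraries' values. The mean was 25.8 ± 8.79% in KO and 29.8 ± 11.0% in WT, a difference of -3.92 points (exact permutation p = 0.8), and -5.14 points without the 22 cells (exact permutation p = 0.6). No difference in share was detectable with these 6 mice. Intervals cover counting error only.

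**Figure D2:**
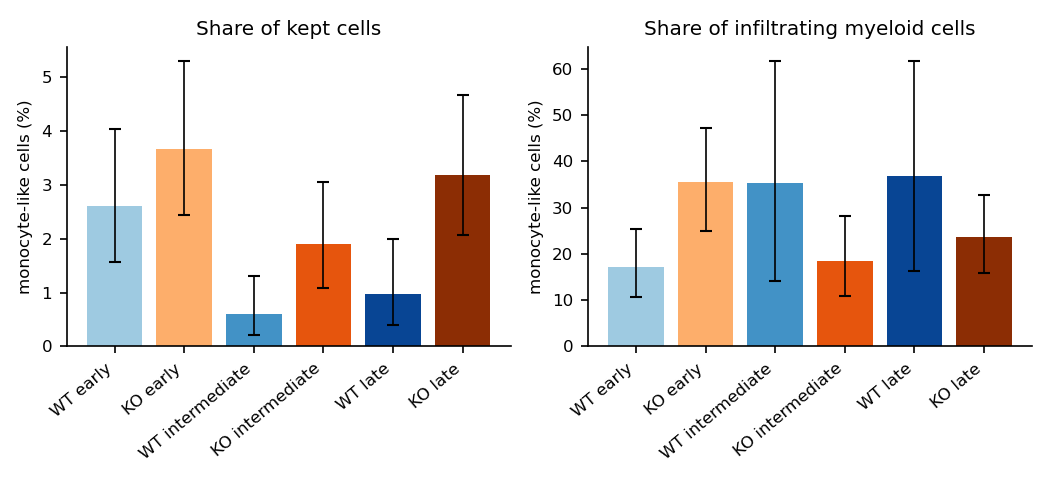
Bars give the monocyte-like share in percent of all kept cells and of infiltrating myeloid cells for each of the 6 tumour-bearing libraries, with exact 95% binomial intervals. The share of kept cells runs from 0.6% to 3.67%, and the intervals of the infiltrating share are widest in the WT intermediate and WT late libraries. Those of the WT early (10.6 to 25.4%) and KO early (24.9 to 47.3%) libraries barely overlap.

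Compared with C1q-positive cells of the same libraries, monocyte-like cells had more RNA of classical monocyte genes and of several type I interferon-stimulated genes, and less of macrophage maturation genes, of 3 of 4 tested cell cycle genes and of 3 of 13 tested chemokine ligands. The UMIs of each class were added up within a library and tested with edgeR's quasi-likelihood test with the library as a block. Of 2335 genes tested, 85 (3.64%) were higher and 96 (4.11%) lower in members at a Benjamini-Hochberg adjusted p under 0.05, the 22 rule genes left out of these counts. For the 78 cells without other-lineage RNA, 65 of 2002 genes (3.25%) were higher and 59 (2.95%) lower, and 41 genes were higher and 54 lower in both fits. Since the same cells' UMIs divided the classes, these calls describe cells gated in this way and are not independent evidence that the classes exist. The classes also differ in what the gate let in, so genes of lymphocytes are set apart first.

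Cytotoxic genes were called higher in all 100 members, and nearly all their UMIs came from the 22 cells. These genes were picked after their values were seen. Gzmb, the granule protease granzyme B, measured 1.38, 3.58, 25.0, 0.363, 0 and 3.14 UMIs per 10,000 in members and at most 0.283 in C1q-positive cells (log2 difference 5.00 ± 0.43 (SE), edgeR adjusted p = 5.7e-07). The 22 cells held 98.9% of its 178 UMIs, 99.9% of the 962 UMIs of Gzmf and 100% of the 703 UMIs of Gzmc. Gzmf was concentrated in the WT intermediate library at 242 UMIs per 10,000. Gzmb in the 78 cells measured 0 in 5 libraries and 0.21 in the KO early library.

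Of the 14 classical monocyte genes fixed as a list, 11 were tested, 7 were higher in all members and none was lower, with a median log2 difference of 0.74 against 0.03 over all genes. Among the 78 cells, 6 of 10 tested were higher, with a median of 0.94. Ms4a4c, also a marker of the label but not a gene of the rule, measured 4.64, 6.71, 7.95, 3.96, 7.76 and 9.43 UMIs per 10,000 in the 78 cells and between 2.06 and 4.13 in C1q-positive cells (log2 difference 0.98 ± 0.20, edgeR adjusted p = 0.0049). Ly6i, a neighbour of Ly6c2 in the Ly6 family cluster, measured 16.1, 13.4, 2.58, 12, 1.79 and 10.1 in all members against 4.52, 2.79, 0, 3.61, 0.602 and 2.33 in C1q-positive cells (log2 difference 2.06 ± 0.25, and 2.41 ± 0.25 without the 22 cells). The WT late library was low in both classes, and the member value was the higher in every library. Ly6 genes form a multigene family, so how reads were split between Ly6i, Ly6c2 and their relatives is uncertain. Hp, the haemoglobin-binding plasma protein haptoglobin, which monocytes also make, was higher by 3.13 ± 0.61 in the 78 cells. Ifitm3, an interferon-induced membrane protein that restricts viral entry, was higher by 0.90 ± 0.18 in the same cells.

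S100a6 and S100a4, calcium-binding proteins of motile cells, passed the test in both fits, at 1.88 ± 0.27 and 1.44 ± 0.35 on the log2 scale in the 78 cells. The 22 cells held 39.3% and 53.4% of their UMIs in members, and the S100a4 call was lost once cells with little Lyz2 were also removed (log2 difference 1.18, edgeR adjusted p = 0.128). Slfn4, a Schlafen family gene induced during myeloid activation, was higher in every library. It measured 9.16, 2.79, 6.45, 4.36, 10.1 and 3.46 UMIs per 10,000 in all members against 0.484, 0.353, 4.29, 0.678, 2.56 and 0.349 in C1q-positive cells (log2 difference 2.66 ± 0.34, edgeR adjusted p = 2.12e-05). It was not particular to myeloid cells, since 28.0% of tumour cells had a Slfn4 UMI beside 45% of members. Mcemp1, a mast cell and monocyte membrane protein, was higher by 2.01 ± 0.37 in the 78 cells. Isg20, an interferon-induced exonuclease, was higher by 2.66 ± 0.67 in the 78 cells, and Slfn1 by 1.62 ± 0.26. Isg20 lost its call when the 22 cells were removed and sums of at least 5 cells were required (log2 difference 2.40, edgeR adjusted p = 0.0699). The other named rises were Ifi205, Ifi206 and Daxx in the 78 cells and Serpinb9, Nedd4, Pdcd4 and Cnn2 in all members, and the 22 cells held between 51.2% and 66.2% of the UMIs of these last 4. In all members, where each library was left out in turn, some of these calls rested on single libraries. This was not done for the 78 cells. The edgeR adjusted p of Mcemp1 rose to 0.0767 without the WT early and 0.0508 without the KO early library, that of Nedd4 to 0.119 without the WT intermediate library, that of Ifi206 to between 0.0609 and 0.185 without any of these 3, and that of Daxx to between 0.0764 and 0.137 without the WT early, KO early or KO late library. Serpinb9 lost its call without the 22 cells (edgeR adjusted p = 0.119).

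**Figure D3:**
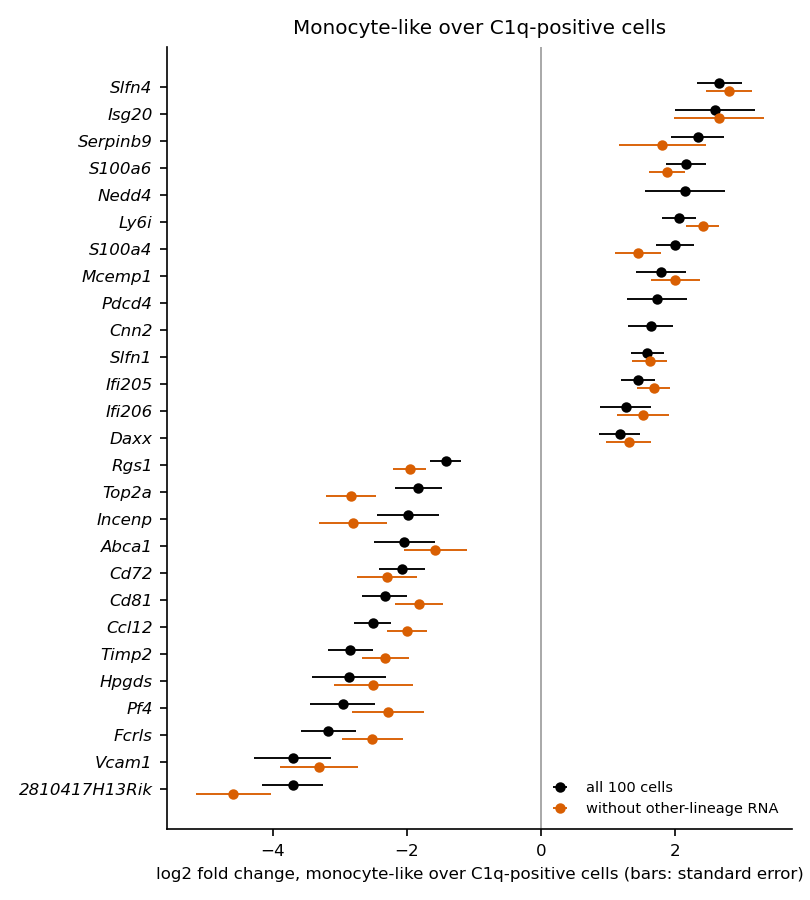
Points give the log2 difference between monocyte-like and C1q-positive cells with its standard error for each named gene, in black for all 100 members and in orange without the 22 cells with other-lineage RNA. Nedd4, Pdcd4 and Cnn2 have no orange point, since they were not tested there, and every other gene shown keeps its side of 0 when the 22 cells are removed, from Slfn4 at 2.66 and 2.81 to 2810417H13Rik at -3.71 and -4.59.

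Of the 10 type I interferon-stimulated genes, 9 were tested against C1q-positive cells. All 9 had positive log2 differences, and 3 passed the test in all members and 4 in the 78 cells, with medians of 0.82 and 1.07 against 0.03 and 0.01 over all genes. Such genes are induced by interferon through promoter elements built from GAAA repeats. Isg15, a ubiquitin-like modifier, measured 10.8, 6.08, 5.96, 5.79, 6.57 and 5.77 UMIs per 10,000 in the 78 cells against 3.09, 3.99, 1.59, 2.56, 3.16 and 3.43 in C1q-positive cells (log2 difference 1.14 ± 0.21, edgeR adjusted p = 0.00175). No member value overlapped the C1q-positive range. Ifit2, an RNA-binding antiviral protein, was higher by 1.54 ± 0.37 in the 78 cells, but its 78-cell level fell to 0.305 in the KO intermediate library, below the 0.894 of C1q-positive cells there. Ifit3, its partner, passed the test in the 78 cells alone (log2 difference 1.81 ± 0.47, edgeR adjusted p = 0.0228). Rsad2, the antiviral enzyme viperin, passed in all members alone, at 1.30 ± 0.29 (edgeR adjusted p = 0.00582), and had 0 UMIs in the 78 cells of the KO intermediate library.

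The 250 bases before the start of Isg15, Ifit3 and Rsad2 are shown because they hold the element GAAA, any 2 bases, GAAA, searched on both strands (TTTC, any 2 bases, TTTC when read from the other) and printed in capitals, from RefSeq on GRCm38.p6 in the direction of the gene. Isg15 lies on the minus strand with its window at chr4:156200819-156201068, and its 3 matches overlap. Ifit3 lies on the plus strand at chr19:34583279-34583528 with 2 matches. Rsad2 lies on the minus strand at chr12:26456453-26456702 with 1 match.
Isg15: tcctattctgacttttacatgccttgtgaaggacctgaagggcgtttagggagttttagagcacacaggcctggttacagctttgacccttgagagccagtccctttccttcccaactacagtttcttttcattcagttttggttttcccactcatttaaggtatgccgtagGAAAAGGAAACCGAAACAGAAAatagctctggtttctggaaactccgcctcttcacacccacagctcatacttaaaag
Ifit3: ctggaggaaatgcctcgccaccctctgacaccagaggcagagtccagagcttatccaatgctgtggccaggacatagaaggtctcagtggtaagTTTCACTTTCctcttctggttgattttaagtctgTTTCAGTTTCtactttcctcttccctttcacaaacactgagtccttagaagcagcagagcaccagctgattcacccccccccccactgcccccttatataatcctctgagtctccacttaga
Rsad2: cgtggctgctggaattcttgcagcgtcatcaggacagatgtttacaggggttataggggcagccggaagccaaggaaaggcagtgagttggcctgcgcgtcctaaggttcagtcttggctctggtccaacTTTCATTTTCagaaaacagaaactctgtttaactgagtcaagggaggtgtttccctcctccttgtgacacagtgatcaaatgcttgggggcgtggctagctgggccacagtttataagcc
The element was present in 2.98% of 32851 windows of this length and in 3.46% of 27025 genes, and in 5 of the 8 listed genes that had a window. The windows of Ifit2 and Oasl2 held no match with these letters. A match is a run of letters and not a measured binding site.

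Most macrophage maturation genes were lower in all members. All 17 had negative log2 differences against C1q-positive cells, 11 of them past the test in all members and 9 in the 78 cells, with medians of -1.08 and -0.72. Apoe, the main lipid carrier of brain macrophages, measured 81.3, 45.7, 98.0, 93.3, 186 and 55.6 UMIs per 10,000 in all members and 208, 95.6, 342, 168, 310 and 141 in C1q-positive cells, lower in members in each library though the ranges overlapped (log2 difference -1.20 ± 0.21, edgeR adjusted p = 0.000729, and -0.77 ± 0.17 without the 22 cells). Trem2, a lipid-sensing receptor of macrophages, differed by -1.28 ± 0.28 and the lysosomal proteases Ctsb and Ctsd by -1.17 ± 0.22 and -1.24 ± 0.24. Cd63, a tetraspanin of lysosomes, differed by -1.82 ± 0.29, a value made uncertain by a near-identical pseudogene. Vcam1, an adhesion ligand for lymphocytes and monocytes, had 5 UMIs in all members and 389 in C1q-positive cells (log2 difference -3.71 ± 0.57). The levels were nearly equal in the KO early library, at 0.262 and 0.283, and DESeq2 did not call Vcam1 (adjusted p = 0.0961). Pf4, a platelet chemokine also made by tissue macrophages, measured 0, 0.175, 15.2, 0, 0 and 0.314 in members, the WT intermediate value being far above the rest. Timp2, an inhibitor of matrix proteases, Hpgds, a prostaglandin D synthase, and Fcrls, an Fc receptor-like gene of macrophages and microglia, were lower by between -2.85 and -3.18. Cd81, Cd72, Abca1 and Rgs1 were the remaining named falls. Abca1 lost its call when the 22 cells were removed and sums of at least 5 cells were required (edgeR adjusted p = 0.0912). Its call was also lost with sums of at least 3 cells once cells with little Lyz2 were removed as well (edgeR adjusted p = 0.0695). Mmp12 and Spp1, chosen after their values were seen, encode the macrophage elastase and osteopontin and were lower by -4.48 ± 0.52 and -1.53 ± 0.23 in the 78 cells.

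Cell cycle genes were lower too. Of the 10 listed, 4 were tested in all members and 3 were lower, and 2 of 3 in the 78 cells. Top2a, a topoisomerase of dividing cells, measured 0.387, 0.524, 1.32, 0.305, 1.19 and 0.141 UMIs per 10,000 in the 78 cells and 3.48, 4.34, 1.43, 3.42, 2.41 and 2.33 in C1q-positive cells (log2 difference -2.83 ± 0.37, edgeR adjusted p = 5.66e-05). No member value exceeded any C1q-positive value. A Top2a UMI was found in 11.5% of the 78 cells, in 40.9% of the 22 cells and in 31.0% of C1q-positive cells, beside 73.2% of tumour cells. 2810417H13Rik, a PCNA-binding gene of S phase, differed by -4.59 ± 0.56 with 2 UMIs left in the 78 cells, and Incenp, a chromosomal passenger protein, by -2.80 ± 0.50 in the same cells.

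Of 10 tested inflammatory genes 1 was higher, Clec4e, and 1 was lower, Il1a (-0.93 ± 0.26), in all members, and 3 of 9 were higher and none lower in the 78 cells. Il1b, the cytokine interleukin 1 beta, measured 78.1, 77.8, 43.7, 56.4, 92.5 and 121 UMIs per 10,000 in the 78 cells against 39.9, 44.9, 34.0, 50.1, 47.1 and 43.3 in C1q-positive cells, higher in every library (log2 difference 0.77 ± 0.19, edgeR adjusted p = 0.016). In all 100 members the Il1b difference was 0.43 ± 0.26 and was not called (edgeR adjusted p = 0.379). Clec4e, a receptor for mycobacterial and damage-associated glycolipids, was higher in both fits, by 1.49 ± 0.29 in the 78 cells, though not in the KO intermediate library, and Tlr2 was higher in the 78 cells alone, by 0.79 ± 0.21. Of 13 tested chemokine ligands none was higher and 3 were lower in either fit. Ccl12, a monocyte-attracting chemokine, measured 0.346, 2.18, 3.35, 0.544, 1.19 and 0.734 in all members against 5.09 to 9.69 in C1q-positive cells, without overlap (log2 difference -2.51 ± 0.27, edgeR adjusted p = 5.16e-06). Without the 22 cells the WT intermediate value was 8.61, within the C1q-positive range. Ccl7, which acts on Ccr2 as well, differed by -1.63 ± 0.46 and Ccl4 by -0.81 ± 0.24 in the 78 cells, and in all members the called falls were Ccl7, Ccl12 and Cxcl1. Hmox1, the stress-induced haem oxygenase, was the called gene among the itaconate and NRF2 targets, at -1.96 ± 0.56 in the 78 cells.

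None of the 6 tested MHC class II genes and none of the 10 class I genes differed from C1q-positive cells at the threshold, in either fit. The class II medians were 0.01 and 0.27 on the log2 scale, and the lowest edgeR adjusted p of the list was 0.559 in all members and 0.33 in the 78 cells. Of the interferon gamma-induced genes 0 of 9 were called in all members and 1 of 9, Gbp2, in the 78 cells. Among myeloid transcription factors Stat3 passed in all members alone, and Cebpb and Klf4, which act in monocyte development, passed in the 78 cells alone, at 0.75 ± 0.17 and 0.81 ± 0.23. The 26 genes that the study names for macrophages gave 0 calls of 25 tested in all members and 4 in the 78 cells, Clec7a, Tlr2, Klf4 and Il1b. The study chose these genes on the same libraries, so they are not independent evidence. Nonclassical monocyte, chemokine receptor, adhesion, glycolysis, arginine, NADPH oxidase and checkpoint lists gave no call in either fit, and the immediate early list gave Jun and Atf3 in the 78 cells alone.

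**Figure D4:**
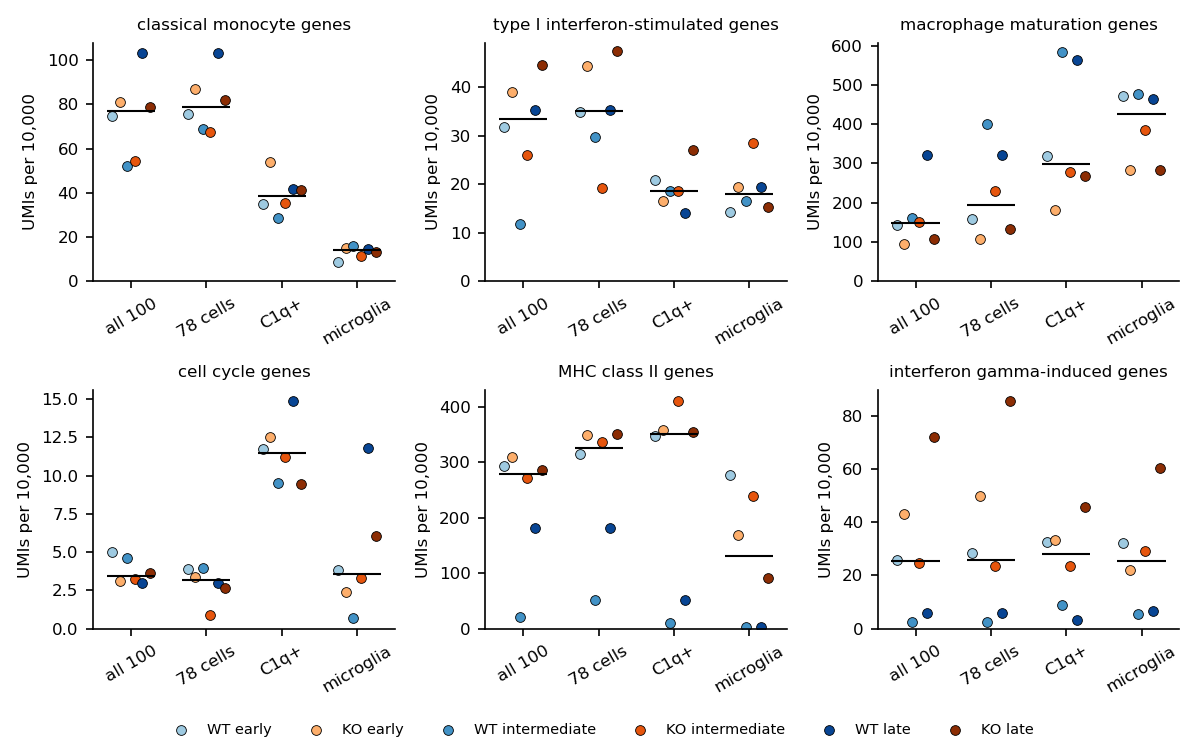
Dots give the summed level of 6 gene lists in UMIs per 10,000 for each of the 6 libraries, and lines their median, in all 100 monocyte-like cells, the 78 without other-lineage RNA, C1q-positive cells and microglia. Classical monocyte genes stand at a median of 76.9 in members, 38.4 in C1q-positive cells and 14.0 in microglia, and macrophage maturation genes at 147, 299 and 425.

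Saa3, an acute phase protein of the serum amyloid A family, shows how unevenly such calls can be carried. It was chosen after its values were seen. It measured 12.1, 0, 0, 13.8, 0 and 0 UMIs per 10,000 in members and 3.11, 0.141, 0, 0.771, 0 and 0 in C1q-positive cells (log2 difference 2.66 ± 0.47, edgeR adjusted p = 0.00123). All its 146 member UMIs lay in 4 cells of the WT early and KO intermediate libraries, which are the libraries of the female mice.

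Against tumour-associated microglia, the 120 cells of the same tumours with microglial genes above infiltrating genes, the members differed more widely. The WT intermediate library had 4 microglia and was left out of the fit with all members, which then rested on 5 libraries. Of 1915 genes tested, 211 (11%) were higher and 240 (12.5%) lower in members by edgeR with the library as a block. The same cells' UMIs divided these classes as well, so the calls describe cells gated in this way and are not independent evidence of the classes. In the 78 cells, with sums of at least 3 cells and all 6 libraries, 205 of 1528 (13.4%) were higher and 196 (12.8%) lower, and 172 higher and 184 lower genes were called in both fits.

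All 9 tested classical monocyte genes were higher than in microglia, and 10 of 10 in the 78 cells, with medians of 3.50 and 3.61 on the log2 scale against 0.02 and 0.01 over all genes. Genes with no microglial UMI are given as bounds against 3 UMIs over the group. Clec4e measured 5.53, 4.02, 1.09, 9.55 and 3.46 UMIs per 10,000 in the 5 libraries and 0 in microglia, at least 60.7-fold higher. F10, the coagulation factor X that monocytes also make, was at least 52.5-fold higher, Gpr171, a G protein-coupled receptor, at least 32.9-fold, and Slpi, a secreted inhibitor of leukocyte proteases, at least 32.4-fold. Slfn4 was higher by 6.74 ± 0.49 on the log2 scale, Clec4d, a C-type lectin that pairs with Clec4e, by 6.38 ± 0.74, and Ccr1, a chemokine receptor of monocytes, by 5.86 ± 0.49 in the 78 cells.

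In the other direction, Crybb1, a crystallin gene of microglia, had 0 UMIs in members and was at least 23.6-fold lower. Tmem119, a marker of resident microglia, measured 0, 0, 1.55, 0.181, 0 and 0 UMIs per 10,000 in members and 2.75 to 7.60 in microglia. Its log2 difference was -6.93 ± 0.56 over the 5 libraries without WT intermediate, where its level in members was highest, and -4.91 ± 0.64 in the 78 cells over all 6. Of the 17 maturation genes 13 were lower and 1, the fatty acid-binding protein Fabp5, was higher. Csf1r, the receptor for the survival factor of microglia and macrophages, differed by -2.31 ± 0.28. The other named falls included Plxdc2, Rasgrp3, Pmp22, Gas6, Cd81, Timp2, Hpgds and Fcrls, all by more than 5 on the log2 scale in all members.

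Cytokines and chemokines split between the classes. Il1b measured 72.1, 67.9, 44.5, 92.5 and 97.7 UMIs per 10,000 in members of the 5 libraries and 22.2, 11.9, 19.3, 12.7 and 3.98 in microglia, without overlap (log2 difference 2.38 ± 0.38, edgeR adjusted p = 4.62e-05). Il1rn, its natural antagonist, was higher by 3.45 ± 0.39, whereas Il1a and Tnf were lower by -2.31 ± 0.28 and -3.18 ± 0.39. Of 13 tested chemokine ligands 3 were higher, Ccl6, Ccl9 and the neutrophil attractant Cxcl2, and 4 were lower, Ccl2, Ccl3, Ccl4 and Ccl12. Ccl4 measured 3.11, 4.45, 3.45, 14.9 and 5.13 in members against 28.1, 112, 51.8, 90.3 and 40.5 in microglia (log2 difference -3.58 ± 0.33). Vegfa, the angiogenic growth factor, measured 8.82, 1.92, 5.26, 2.98 and 4.82 in members and at most 0.598 in microglia (log2 difference 4.06 ± 0.40), and the glycolysis list gave 4 calls of 7, all higher (Ldha, Eno1, Vegfa and Mif). Of 8 tested adhesion and migration genes 5 were higher, Cd44 and Vim among them, and 2 were lower, Itgam and Selplg. H2-Ab1 was the called gene of 6 in MHC class II (1.76 ± 0.53, edgeR adjusted p = 0.0164), joined by H2-Aa and H2-Eb1 in the 78 cells. Of the genes the study names for macrophages 12 of 25 were higher and 1, Cd36, was lower, with the limit given above.

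Acod1, the targeted gene, lies on chromosome 14 of GRCm38 from 103046977 to 103056573. In all members it had 15, 18, 0, 0, 1 and 7 UMIs, that is 2.59, 1.57, 0, 0, 0.597 and 0.734 per 10,000. The exact 95% Poisson intervals were 1.45 to 4.28 in the WT early and 0.931 to 2.48 in the KO early library, which overlap. By the limit of 3 UMIs used here for a count of 0, which is tighter than a two-sided interval, the zeros allow up to 0.774 in the WT intermediate and 0.544 in the KO intermediate library. Acod1 UMIs were thus found in libraries labelled KO. A 3′ tag that may lie past the inserted cassette does not check whether the enzyme is made, so the labels were neither upheld nor contradicted by it. An Acod1 UMI was found in 18% of members, 15.8% of C1q-positive cells, 9.17% of microglia and 0.673% of tumour cells, and the level in members differed from that in C1q-positive cells by 0.94 ± 0.50 on the log2 scale (edgeR adjusted p = 0.308).

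The study compared KO with WT hosts at matched stages, and in the monocyte-like cells no gene passed the test. With the stage as a block, 0 of 1337 genes (0%) were called by edgeR, with 45 at an unadjusted p under 0.05. On simulated counts this test recovered 60% of genes changed by 2 on the log2 scale and 88% of those changed by 3. DESeq2 called 0 of 14280 genes, with 33 under 0.05. In the 78 cells, with sums of at least 3 cells (chosen after seeing the data), 0 of 959 genes (0%) were called, with 59 under 0.05. The count depended on the libraries, since leaving out 1 library at a time gave between 1 and 20 calls in all members. The planned removal of cells with other-lineage RNA kept sums of at least 5 cells and so left out the WT intermediate library. It called 21 of 1591 genes, 13 higher and 8 lower. The contrast is 3 mice against 3, in which sex, stage and genotype are interlaced.

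The values of 5 chemokine and interferon-induced genes are given as a description and not as changes. These genes were chosen after their values were seen. Cxcl9, a chemokine that attracts T cells through Cxcr3, measured 5.36, 10.5, 0, 5.44, 0 and 21.7 UMIs per 10,000 in all members, with each KO value above that of its stage in WT and 0 in the WT intermediate and WT late libraries (log2 difference 2.94 ± 0.93, edgeR adjusted p = 0.871). Cxcl10, a second ligand of the same receptor, measured 2.42, 8.90, 0.258, 5.81, 1.79 and 13.9 (2.65 ± 0.54, edgeR adjusted p = 0.372). Iigp1, an immunity-related GTPase, measured 0.864, 4.80, 0, 1.27, 0 and 6.39 (3.22 ± 0.74, edgeR adjusted p = 0.372). Ccl7 went the other way at 2.42, 0.524, 1.81, 0.544, 7.16 and 0.629 (-2.58 ± 0.57, edgeR adjusted p = 0.372). Ccl2 measured 5.01, 2.53, 2.84, 0.907, 16.1 and 3.56 (-1.63 ± 0.43, edgeR adjusted p = 0.706). Without the 22 cells the differences were 2.64 for Cxcl9, 2.19 for Cxcl10, 3.25 for Iigp1 and -2.49 for Ccl7, with edgeR adjusted p between 0.142 and 0.475.

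All 8 tested interferon gamma-induced genes had positive KO against WT differences, with a median of 1.87 in all members and 1.99 in the 78 cells, against 0.01 and 0.00 over all genes. The list summed to 25.9, 43.1, 2.32, 24.5, 5.97 and 71.9 UMIs per 10,000. The WT intermediate and WT late values were the low ones, as they were in C1q-positive cells (32.4, 33.2, 8.90, 23.6, 3.31 and 45.8), in microglia (5.50 and 6.61 there, and 21.8 to 60.2 in the other libraries) and in tumour cells (46.8, 54.3, 16.6, 42.7, 5.84 and 58.0). The WT early value in members lay slightly above the KO intermediate value. Without the 22 cells the sums were 28.2, 49.8, 2.65, 23.5, 5.97 and 85.6. All 6 tested MHC class II genes were positive too, with medians of 1.34 and 1.22, and the list summed to 293, 310, 20.9, 271, 181 and 285, low in the WT intermediate library and intermediate in the WT late library. The same list summed to 346, 358, 10.0, 410, 50.8 and 354 in C1q-positive cells and to 277, 169, 3.44, 239.7, 2.07 and 91.6 in microglia, with the WT intermediate and WT late libraries lowest in each class. All 10 MHC class I genes were positive in all members, with a median of 0.52, and 8 of 9 in the 78 cells, with a median of 0.46, and of the 12 tested maturation genes 4 were positive, with a median of -0.86. T cell list RNA in the members measured 0.346, 1.57, 1.29, 11.3, 0 and 7.86 UMIs per 10,000, higher in KO than in WT at each stage. In the 78 cells that RNA was at most 0.21 in every library, since cells with 10 or more of the list had been removed. The parts of T cell RNA and of the host's sex in these values were not tested.

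**Figure D5:**
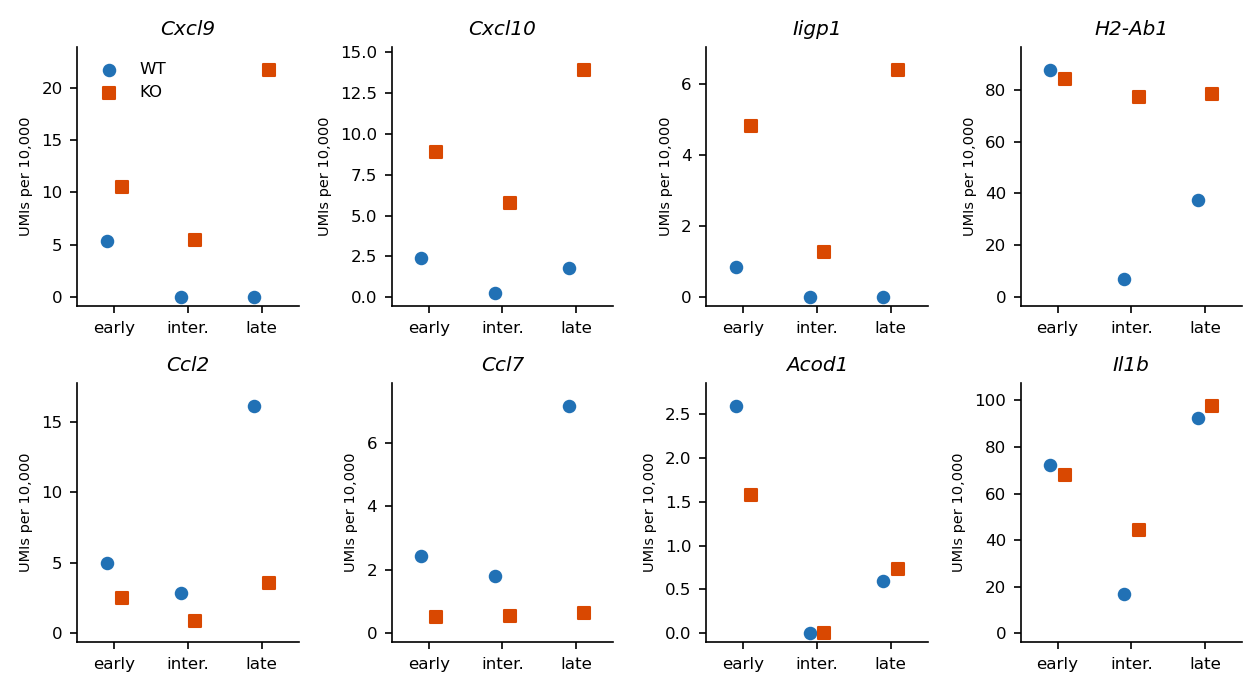
Levels of 8 genes in all monocyte-like cells are plotted in UMIs per 10,000 for each library, WT as circles and KO as squares, by stage. Cxcl10 and Iigp1 lie higher and Ccl7 lower in KO at each stage, H2-Ab1 is low at 6.97 and 37.6 in the WT intermediate and WT late libraries, and Il1b shows no constant order.

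With genotype as a covariate, edgeR called 0 of 1337 genes (0%) between late and early tumours, with 28 at an unadjusted p under 0.05. On simulated counts it recovered only 27% of genes changed by 2 on the log2 scale and 66% of those changed by 3. The absence of calls therefore does not show that no gene changed. DESeq2 called 0 of 14280 genes, with 14 under 0.05. In the 78 cells, with sums of at least 3 cells, 0 of 959 (0%) were called, with 31 under 0.05. The count depended on the libraries here too, with 0 to 12 calls when 1 library was left out. The planned removal of cells with other-lineage RNA, which left out the WT intermediate library, gave 14 calls of 1591 genes, 11 higher and 3 lower. With no filter on low counts 8 of 14280 genes were called. The lowest adjusted p was 0.996 in all members and 0.99 in the 78 cells by edgeR. Inhba, the activin A subunit, chosen after its values were seen, measured 14.5, 3.67, 0, 3.81, 0 and 0.314 UMIs per 10,000, higher in both early than in both late libraries (log2 difference -5.06 ± 1.45, edgeR adjusted p = 0.996). It had a UMI in 21% of members, in none of the 120 microglia and in 0.673% of tumour cells. Inhba UMIs were also present in C1q-positive cells. Ccl8, a chemokine of alternatively activated macrophages and also chosen after the values were seen, was found in 4 members of the KO late library alone, at 12.1, while C1q-positive cells held it in 5 of 6 libraries at up to 18.5. In such summed counts, fewer expressing cells and less RNA per cell cannot be told apart.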

How the data were processed

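Drop-seq libraries of WT and KO mouse brain were processed by the authors with bcl2fastq 2.0, STAR and the Drop-seq pipeline, with FastQC for quality. The submitters' processing notes name GRCm38 and mm10. What the authors deposited are raw UMI counts of each gene in each barcode, from 3′ ends, so levels are per molecule and not per length. Cells were selected on these counts as given in the report. Members and gene lists were chosen with earlier results of these data known. Doublets were removed only as an alternative, by Scrublet (scanpy 1.11.5), whose calls were used in the WT early library. In the other 5 tumour libraries it marked under 0.5% of cells, and the highest 5% of scores were removed, 1 member among them. UMIs were summed per library and class with at least 5 cells and tested with edgeR 4.0.16 in R 4.3.3 (TMM, filterByExpr, quasi-likelihood, Benjamini-Hochberg), after a test on simulated counts. DESeq2 1.42.0 was an alternative. Removing cells with at least 10 UMIs per 10,000 of another leukocyte list was planned. Doing so with sums of at least 3 cells, and also removing cells under 10 of Lyz2, was chosen after seeing the data.

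Named genes were all 22 rule genes, the 6 markers, Acod1, and for each test the 10 largest fitted changes each way among called genes with 1 direction over all libraries that reached a mean of 100 CPM in the higher class, plus examples of each list by most UMIs. Genes named outside this rule are marked in the text. With 1 library per genotype and stage, no p-value measures the spread between mice of the same group. In the class comparisons the p-values rest on how far the difference within a library varied between libraries. For KO against WT and late against early, those of edgeR rest on the spread left between libraries after stage and genotype were fitted. Shares were compared by exact permutation over libraries without matching by stage (scipy 1.17.1). Gene coordinates are those of GENCODE M21.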

Additional observations from a re-analysis of the deposited data

Results flagged for a closer look

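The share of monocyte-like cells among infiltrating myeloid cells differed in direction between stages. KO minus WT was 18.4 percentage points at the early stage (35.5% against 17.1%), -16.9 points at the intermediate stage (18.4% against 35.3%) and -13.3 points at the late stage (23.6% against 36.8%). Each value sets 1 library against 1 library, so the difference between stages was not tested. The WT intermediate and WT late shares rest on 6 of 17 and 7 of 19 cells.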

How the results depend on the processing

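The difference in share of kept cells stayed positive under every alternative run, from 0.781 to 2.13 points with 1 library left out or cells removed, and the infiltrating share stayed negative, from -10.2 to -0.196 points. Against C1q-positive cells, 181 of 2335 tested genes were called, and the number tested changed with the setting. Calls became 317 of 18686 with no filter on low counts and 35 of 1413 with no library block. They became 110 of 2261 when cells with other-lineage RNA were removed (5 libraries) and 100 of 1951 when cells with little Lyz2 were removed as well. With 1 library left out they numbered 88 to 197, the lowest without KO late, 114 without KO early and 118 without KO intermediate. Requiring 10 cells per sum gave 264 calls of 4563 genes in 4 libraries. Against microglia, 451 calls of 1915 genes became 255 of 1150 with no library block. The calls numbered 355 to 490 with 1 library left out. KO against WT gave 21 calls of 1591 genes with other-lineage RNA removed (5 libraries) and 14 of 14280 with no filter on low counts. It gave 1 to 20 with 1 library left out (20 without KO early, 18 without WT early, 17 without KO intermediate, 5 without WT late, 5 without KO late and 1 without WT intermediate). Late against early gave 14, 8 and 0 to 12 (12 without KO intermediate, 8 without KO early, 6 without WT early, 5 without WT late, 3 without WT intermediate and 0 without KO late). The causes were not tested. Of the values recomputed for named genes, 905 kept their direction and side of the threshold, 26 lost the call and none changed sign. Genes that an alternative did not test gave no value there. The microglia fit without the WT intermediate library was the main fit itself, so its 26 values could not differ. At least 10 cells per sum could not be run for genotype and stage. Mice could not be paired across groups, because the labels give no replicate number that pairs them. The comparisons between cell classes were paired within each library, which served as a block. The edgeR test of KO against WT had the stage as a block, as given in the report, and the permutation test of shares did not. The WT intermediate and WT late libraries held the fewest members, 6 and 7.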
